A study of Schizosaccharomyces pombe with 16 samples.

Results

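The comparison described here adds the S7A replacement to a strain that already carries Y1F. Y1F-S7A and Y1F are fission yeast (Schizosaccharomyces pombe) strains whose largest RNA polymerase II subunit, Rpb1, has an altered C-terminal domain (CTD). In Y1F the tyrosine at position 1 of the CTD heptad is phenylalanine, and in Y1F-S7A the serine at position 7 is in addition alanine. By their labels the strains compared thus differ by S7A alone. The members are all libraries of both strains: 2 of Y1F-S7A and 2 of Y1F, 4 of the 16 libraries of the study, whose 8 strains have 2 biological replicates each. Of the 7022 features in the deposited table, 6420 had enough reads and were tested. A further 2 pairs of strains serve for reference, S7A with WT and T4A-S7A with T4A, where T4A has alanine for the threonine at position 4. These 6 strains have the same marker genotype, h- ade6 ura4-D18 leu1–32, and each carries a CTD allele of rpb1, WT included (rpb1CTD-WT 1-18). All cultures grew in YES, a rich medium, at 30 °C to an OD600 of 0.4 to 0.7. Polyadenylated RNA was sequenced with strand kept, with reads from both ends. Whether the replicate cultures of a strain came from separate transformants was not given. Other differences between strains therefore cannot be told apart from the replacement named in the label.

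The CTD is a tail of heptad repeats (tyrosine, serine, proline, threonine, serine, proline, serine) that carries phosphates in patterns that change as the polymerase moves from promoter to terminator. Capping, elongation, splicing, 3'-end and termination factors read those patterns. Tyrosine 1 and serine 7 can both be phosphorylated. In fission yeast the genes of phosphate acquisition are known to be kept low by transcription of a non-coding RNA upstream of them, and many other non-coding RNAs are transcribed near or opposite protein-coding genes.

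In the RefSeq genome (assembly ASM294v3) the longest run of adjoining repeats that open with tyrosine, serine and proline in rpb1 held 20 heptads, all of the consensus residues, on the plus strand of chromosome II from 1596288 to 1596707. Repeats 1, 2 and 20 are shown because their codons 1 and 7, in capitals, encode the residues replaced in Y1F and S7A. They are reference sequence, 5′ to 3′, and not that of the mutant alleles.
rpb1 repeat 1: TACtctccaactagtcccTCC
rpb1 repeat 2: TATtctcctactagtcctTCT
rpb1 repeat 20: TATtcccctactagcccaTCT
Position 7 was encoded by TCT in 12 of these repeats, by TCA and TCG in 3 each and by TCC in 2, and position 1 by TAT in 17 and TAC in 3.

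The 4 libraries held 20001611 to 30367634 reads assigned to features, within the range of 18677921 to 31254978 over all 16. Values below are CPM, reads per 1e+06 assigned reads, after TMM scaling. The ura4 gene, deleted in the ura4-D18 background, had 0 reads in all 4 libraries, where a count of 0 allows up to 3 reads. The read counts do not show which residue a CTD allele encodes. The rpb1 level was 344 and 363 CPM in Y1F and 280 and 307 CPM in Y1F-S7A, with a log2 fold change of -0.27 ± 0.18 (SE) that did not pass the test (edgeR quasi-likelihood test, adjusted p = 1). Libraries with the same replicate number resembled each other across strains, and 3228 of 6420 features differed between numbers 1 and 2. Results are therefore given from the test without the number, from the test with the replicate number as a term, or from both, as stated. In Y1F-S7A against Y1F only 1 feature passed without the number, so every other edgeR call there rests on the number as a term. In RNA from whole cultures, a change in the share of cells in a state and a change in RNA per cell cannot be told apart.

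Few transcripts were called when S7A was added to Y1F, and most of those that rose with the replicate number as a term were non-coding RNAs. Without the replicate number the adjusted p lay under 0.05 for 1 feature, 0.0156% of those tested, and 370 features had an unadjusted p under 0.05. That feature was SPNCRNA.952, a non-coding RNA on the minus strand of chromosome I, 3974635 to 3976212 in the deposited coordinates, whose genome build the table does not name. It stood at 7.01 and 6.60 CPM in Y1F and at 22.1 and 20.5 CPM in Y1F-S7A. Both Y1F-S7A cultures lay far above both Y1F cultures, with a log2 fold change of 1.65 ± 0.22 (SE, adjusted p = 0.0483; 0.00267 with the replicate number as a term). In WT it was at 2.15 and 2.02 CPM and in S7A at 10.3 and 10.5 CPM, a log2 fold change of 2.32 ± 0.23 (adjusted p = 0.00144). Y1F-S7A thus held the highest level of the 4 strains. T4A-S7A against T4A had a log2 fold change of 1.56 ± 0.23 (SE; adjusted p = 0.0238), so this RNA rose with S7A in all 3 backgrounds. SPNCRNA.952 begins 39 bases 3' of ppk18, a protein kinase gene on the same strand, and lies opposite trm5, a tRNA methyltransferase gene. RefSeq describes it as a possible alternative UTR. Neither neighbour passed the test: ppk18 had a log2 fold change of 0.09 ± 0.12 (SE) and trm5 of -0.25 ± 0.26 (SE).

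With the replicate number as a term 87 features were called, 1.36% of those tested: 47 rose (0.732%) and 40 fell (0.623%). Leaving out 1 library at a time lowered that count, to 17 or 12 for Y1F-S7A replicates 1 or 2 and to 19 or 13 for Y1F replicates 1 or 2, and it was 203 in DESeq2 with the term. DESeq2 called 65 without that term, and the authors' deposited table has 5 at an adjusted p under 0.05. Of the 47 that rose 29 were SPNCRNA features (61.7%), against 20.8% of all tested features. Of the 40 that fell 36 were protein-coding genes, as were 77.8% of all tested features. The median size of the log2 fold change was 1.12 among those that rose and 0.53 among those that fell. Both Y1F-S7A libraries lay beyond both Y1F libraries for 85 of the 87, where 26.8% of all tested features do so. The 87 were called on these same libraries, so this count is a description and adds no support to the calls.

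**Figure D1:**
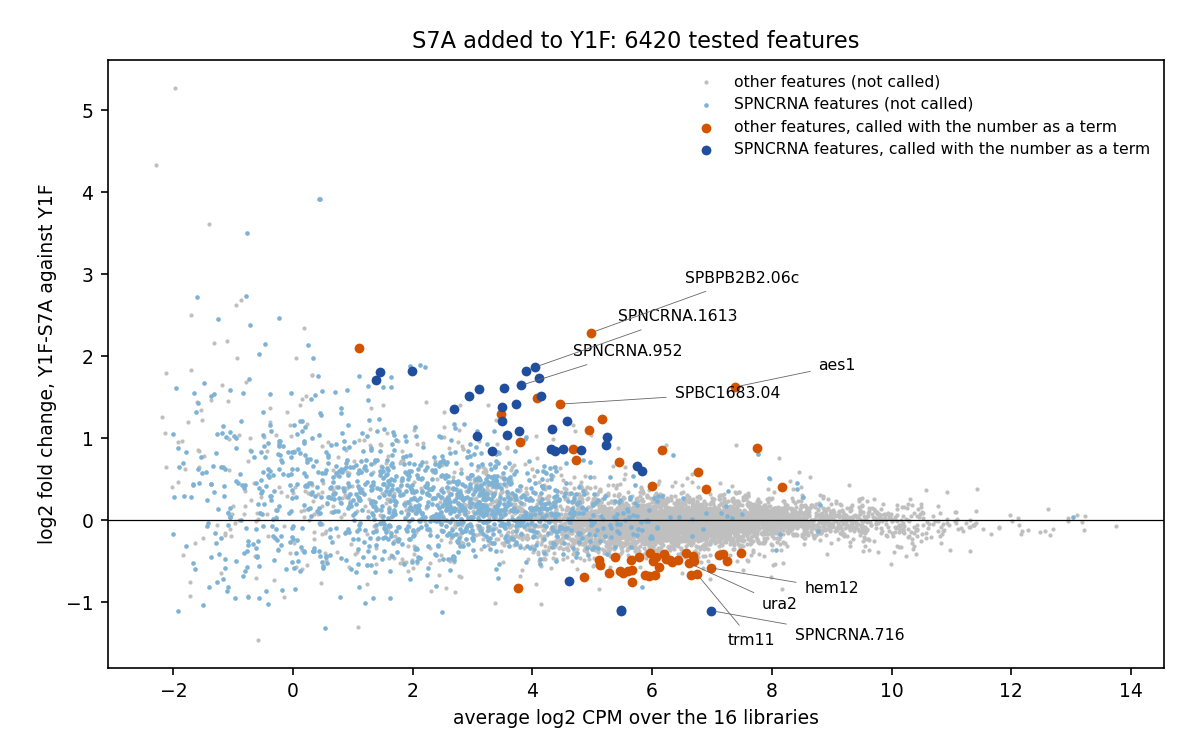
Log2 fold change of Y1F-S7A against Y1F (vertical axis) by average log2 CPM over the 16 libraries (horizontal axis) for the 6420 tested features, with SPNCRNA features in blue and the 87 called with the replicate number as a term as large points. The called non-coding RNAs lie mostly above 0 at low to middle levels, and the called protein-coding genes that fell form a band near -0.5 at higher levels.

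Just outside the threshold of the test without the number, 10 features shared an adjusted p of 0.067, and 8 of them were SPNCRNA features. SPNCRNA.803 was at 5.70 and 4.90 CPM in Y1F and at 14.2 and 16.2 CPM in Y1F-S7A (log2 fold change 1.51 ± 0.23, SE). SPNCRNA.1529 was at 7.97 and 8.60 CPM in Y1F and at 23.2 and 35.6 CPM in Y1F-S7A. SPNCRNA.1613 was at 8.02 and 10.1 CPM in Y1F and at 29.5 and 36.7 CPM in Y1F-S7A. In all 3 the lower Y1F-S7A culture was more than 2-fold above the higher Y1F culture. With the replicate number as a term they rose, with adjusted p-values of 0.00352, 0.00333 and 0.00108 in that order. SPNCRNA.1613 was at 0.823 and 1.46 CPM in WT and at 4.30 and 5.59 CPM in S7A, so that its level went up in the order WT, S7A, Y1F, Y1F-S7A with no overlap between strains. SPNCRNA.653 had a log2 fold change of 1.74 ± 0.29 (SE) and SPNCRNA.581 of 1.62 ± 0.33 (SE), and both rose with the number as a term (adjusted p = 0.00357 and 0.00352). SPNCRNA.551 lies within SPNCRNA.653 on the same strand, so reads of that stretch cannot be told apart. SPNCRNA.653, SPNCRNA.952, SPNCRNA.1613, SPBPB2B2.06c and aes1 are the 5 features called in the authors' deposited table, all higher in Y1F-S7A.

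Of the 29 SPNCRNA features that rose with the number as a term, 28 are listed in the deposited table as antisense to another feature, against 81.9% of all tested SPNCRNA features. Their 31 antisense partners had a median log2 fold change of -0.13, with 24 below 0 and 7 above. Of these partners 3 fell and 0 rose with the number as a term (background 0.623% and 0.732%). They were ceo5, opposite SPNCRNA.1033, rqc1, opposite SPNCRNA.922, and SPCC777.03c, opposite SPNCRNA.1210. For ceo5, a gene for a protein with TPR repeats, CPM was 162 and 175 in Y1F and 121 and 118 in Y1F-S7A (log2 fold change -0.49 ± 0.11, SE; adjusted p = 0.0111 with the number as a term, 0.154 without). The rqc1 gene, named for ribosome quality control, was at 150 and 167 CPM in Y1F and at 110 and 126 CPM in Y1F-S7A. Of the 29 features 9 begin within 500 bases 3' of a feature on the same strand, 31.0% against 19.955% of all tested SPNCRNA features. The 4 SPNCRNA features that fell all do so (100%), of which SPNCRNA.322 and SPNCRNA.1380 share reads. The position was thus not particular to those that rose. Among the 29, besides SPNCRNA.952, SPNCRNA.803 begins 200 bases from atg12, an autophagy gene. SPNCRNA.1613 begins 439 bases from noc3, a gene named for a nucleolar complex. Of the 9 such upstream features 1 fell and 0 rose with the number as a term (background 0.623% and 0.732%). That was SPCC777.02, a transcription factor gene 68 bases from SPNCRNA.1210 (log2 fold change -0.67 ± 0.11, SE, adjusted p = 0.00723).

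Non-coding RNAs as a class stood slightly higher in Y1F-S7A. Of the 1553 SPNCRNA features 1333 were tested, and their median log2 fold change was 0.21, against -0.02 for the other 5087 tested features. Both Y1F-S7A libraries exceeded both Y1F libraries for 30.1% of the tested SPNCRNA features and lay below them for 7.43%, where all tested features gave 13.8% and 13.0%. Without the filter on low counts, 1465 had a read in the 4 libraries, of which 462 were higher in both Y1F-S7A libraries, 89 lower and 914 overlapping. SPNCRNA features took 2.34% and 2.61% of the reads in Y1F and 2.72% and 2.70% in Y1F-S7A. In WT they took 2.24% and 2.47% and in S7A 2.14% and 2.51%, and the median of S7A against WT was 0.02. For T4A-S7A against T4A the median of the same features was 0.11, and between log2 CPM 3 and 5 it was 0.14. Whether the shift differs between backgrounds was not tested. The shift moved with level and was not limited to non-coding RNAs. Below an average log2 CPM of 1 the median was 0.41 for SPNCRNA features and 0.34 for other features. Between log2 CPM 3 and 5 it was 0.15 for SPNCRNA features and 0.005 for other features. The part of low counts in this shift was not tested.

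A small number of SPNCRNA features went the other way. SPNCRNA.716 was at 124 and 167 CPM in Y1F and at 53.0 and 82.8 CPM in Y1F-S7A, and fell with the number as a term (log2 fold change -1.13 ± 0.15, SE; adjusted p = 0.00399, and 0.900 without the number). Its cultures of number 2 were the higher ones in all 4 strains, with 93 and 163 CPM in WT and 22.5 and 38.0 CPM in S7A. SPNCRNA.322 fell with the number as a term as well (log2 fold change -1.09 ± 0.22, SE; adjusted p = 0.0282), and shares its reads with SPNCRNA.1380 on the same strand, which was also called. SPNCRNA.1687, the last of the 4, fell with the number as a term too (log2 fold change -0.71 ± 0.16, SE; adjusted p = 0.0430).

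The protein-coding genes that fell did so by small amounts. None passed the test without the replicate number. The ura2 gene, which encodes dihydroorotase of pyrimidine synthesis, was at 118 and 122 CPM in Y1F and at 82.0 and 85.1 CPM in Y1F-S7A. Its spread between cultures was far smaller than the difference, and its log2 fold change was -0.52 ± 0.09 (SE; adjusted p = 0.067, and 0.00370 with the number as a term). WT stood at 117 CPM in both cultures and S7A at 101 and 102 CPM. The hem12 gene, for uroporphyrinogen decarboxylase of heme synthesis, was at 141 and 133 CPM in Y1F and at 95.4 and 87.6 CPM in Y1F-S7A (adjusted p = 0.106, and 0.00352 with the number as a term). The mdm31 gene, named for a mitochondrial protein of budding yeast, was at 134 and 122 CPM in Y1F and at 88.7 and 93.1 CPM in Y1F-S7A. It fell with the number as a term (log2 fold change -0.49 ± 0.08, SE; adjusted p = 0.00743).

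The gene with the smallest p among those that fell was trm11, for the catalytic subunit of a tRNA methyltransferase (log2 fold change -0.65 ± 0.07, SE; adjusted p = 0.00136 with the number as a term). The trm11 gene was at 110 and 129 CPM in Y1F and at 71.6 and 80.4 CPM in Y1F-S7A, with no overlap. In the list of heterochromatin and RNA interference genes 24 were tested, with a median log2 fold change of -0.09. There 2 fell and 0 rose with the number as a term, against 0.623% and 0.732% of all tested features. They were clr4, the histone H3 lysine 9 methyltransferase, and rik1, a WD-repeat protein of the same complex. In S7A against WT 5 of the 24 fell and 0 rose with the number as a term, against 3.99% and 4.11% of all tested features. The clr4 level was 36.7 and 35.4 CPM in Y1F and 22.9 and 26.7 CPM in Y1F-S7A (log2 fold change -0.55 ± 0.12, SE; adjusted p = 0.0405, and 0.259 without the number). The rik1 level was 84.4 and 88.5 CPM in Y1F and 62.1 and 62.8 CPM in Y1F-S7A (adjusted p = 0.0130, and 0.330 without the number).

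**Figure D2:**
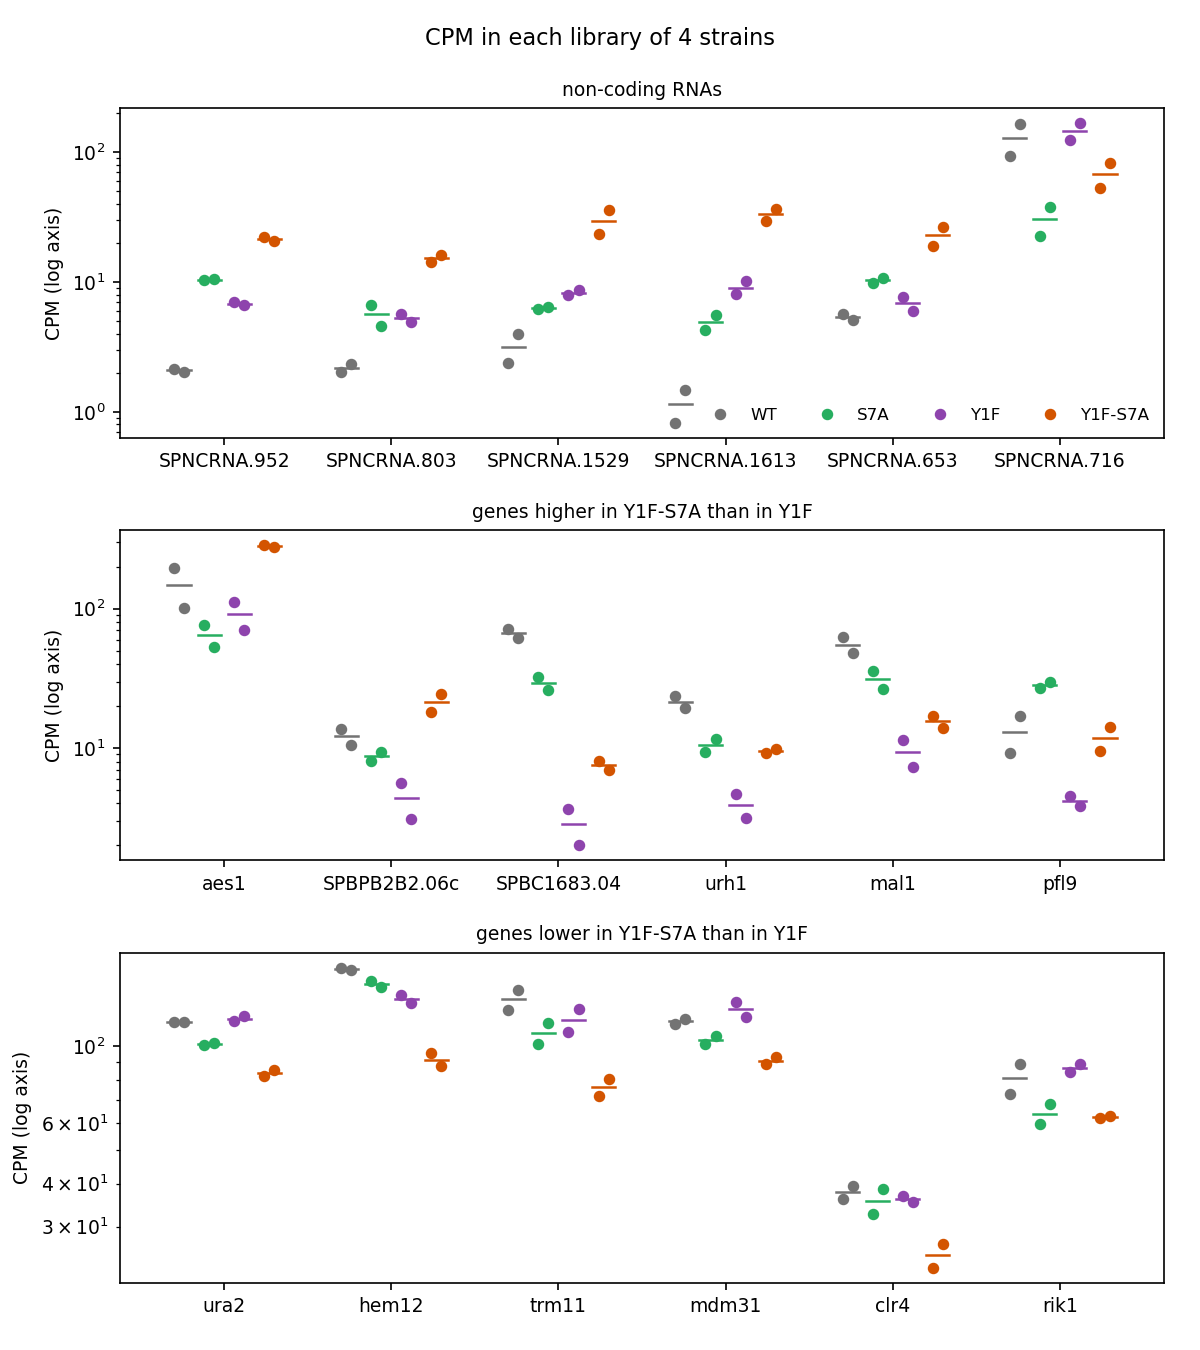
CPM on a log axis in each of the 2 libraries of WT, S7A, Y1F and Y1F-S7A (points; short lines are the means) for 6 non-coding RNAs, 6 genes that rose and 6 that fell with the replicate number as a term. SPNCRNA.952 stands at 22.1 and 20.5 CPM in Y1F-S7A, above every other library shown for it, and ura2 at 82.0 and 85.1 CPM lies below every other library.

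Of the 18 protein-coding genes that rose with the number as a term, the 6 with the largest fold changes lie near the ends of chromosomes or in a single stretch of chromosome II. SPBPB2B2.06c, annotated as a phosphoprotein phosphatase (chromosome II, 4469018 to 4471207), was at 5.65 and 3.08 CPM in Y1F and at 18.0 and 24.6 CPM in Y1F-S7A. Its log2 fold change was 2.29 ± 0.40 (SE; adjusted p = 0.067, and 0.0254 with the number as a term). The aes1 gene, of the phenazine biosynthesis family (chromosome II, 70156 to 71310), was at 112 and 70.7 CPM in Y1F and at 285 and 277 CPM in Y1F-S7A. WT stood at 196 and 101 CPM and S7A at 75.8 and 53.3 CPM, so Y1F-S7A was above all 6 other libraries. It rose with the number as a term, by 1.67 ± 0.23 on the log2 scale (SE; adjusted p = 0.00723, and 0.168 without). The pfl9 gene, for a DIPSY family cell-surface glycoprotein on chromosome I, was at 4.54 and 3.83 CPM in Y1F and at 9.54 and 14.1 CPM in Y1F-S7A, and rose with the number as a term (adjusted p = 0.0208).

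In a stretch of chromosome II from 142262 to 159570, 10 features were tested. Of these, 8 were higher in both Y1F-S7A libraries, 0 were lower in both, and 4 rose with the number as a term. Over all tested features these shares were 13.8%, 13.0% and 0.732%, but the stretch was picked after its values were seen. SPBC1683.04, a glycosyl hydrolase gene, was at 3.67 and 2.01 CPM in Y1F and at 8.14 and 6.95 CPM in Y1F-S7A, and at 71.4 and 62.0 CPM in WT and 32.2 and 26.3 CPM in S7A. S7A thus went with a lower level beside the WT heptad and a higher one beside Y1F, with all libraries of Y1F-S7A still below those of S7A. Its log2 fold change in Y1F was 1.42 ± 0.34 (SE; adjusted p = 0.231, and 0.00352 with the number as a term). The urh1 gene, for uridine ribohydrolase, was at 4.64 and 3.12 CPM in Y1F and at 9.19 and 9.92 CPM in Y1F-S7A, against 23.4 and 19.4 CPM in WT. The mal1 gene, for maltase, was at 11.4 and 7.31 CPM in Y1F and at 17.1 and 14 CPM in Y1F-S7A, against 62.7 and 47.9 CPM in WT. The hexose transporter gene ght4 was at 7.73 and 5.93 CPM in Y1F and at 14.7 and 11.9 CPM in Y1F-S7A. The urh1, mal1 and ght4 genes rose with the number as a term (adjusted p = 0.0129, 0.0254 and 0.0212, and 0.119, 0.800 and 0.307 without). The mal1 and urh1 features overlap on opposite strands, and the libraries kept strand. SPNCRNA.298, counted among the 8, lies within ght4 on the same strand, so reads of that stretch cannot be told apart. Outside the stretch thi9, for a thiamine transporter on chromosome I, was at 49.1 and 60.1 CPM in Y1F and at 81.0 and 117 CPM in Y1F-S7A (adjusted p = 0.0111 with the number as a term).

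Features near the ends of chromosomes I and II stood higher in Y1F-S7A than in Y1F. Within 100 kb of the outermost feature 107 features were tested, and their median log2 fold change was 0.59, against -0.000835 for the 5145 other tested features of these chromosomes. Both Y1F-S7A libraries exceeded both Y1F libraries for 52 of the 107 (48.6%) and lay below them for 1 (0.935%), against 13.0% and 12.9% elsewhere. The limit of 100 kb was chosen after the values were seen. No single feature among the 107 was called without the number, and with it 8 rose and 0 fell, against 0.732% and 0.623% of all tested features. Among the 8 were aes1, SPBPB2B2.06c, pfl9 and pan5. Without the filter on low counts 188 features lie there, 125 had a read in the 4 libraries, and 60 were higher in both Y1F-S7A libraries, 2 lower and 63 overlapping. In steps of 50 kb from the outermost feature the median was 0.96 in 25 features, 0.53 in 82, 0.12 in 101 and 0.03 in 116. Many of these features are low in level, and the part of level in the shift was not tested. By range of average log2 CPM, below 1 the median was 0.93 against 0.35 elsewhere, from 1 to 3 it was 0.51 against 0.22, from 3 to 5 it was 0.55 against 0.04, and from 5 it was 0.19 against -0.03. By arm, the median was 0.08 on the left of chromosome I, 0.91 on its right, 0.73 on the left of II and 0.54 on its right.

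The median level of the 107 features was 4.06 and 3.34 CPM in Y1F and 5.59 and 5.50 CPM in Y1F-S7A. In WT it was 4.94 and 3.95 CPM and in S7A 3.45 and 2.65 CPM. Both Y1F-S7A libraries were thus above the 6 others in this median. The summed level of the 107, which includes the abundant pho1, had another order: 4192 and 3673 CPM in Y1F, 4983 and 4664 CPM in Y1F-S7A, 5785 and 5240 CPM in WT and 7607 and 7077 CPM in S7A. S7A against WT had a median log2 fold change of -0.39 over the same features. The median level of these features was 2.69 and 2.31 CPM in T4A and 2.78 and 2.48 CPM in T4A-S7A. The galactose genes gal1, gal7 and gal10 lie near the right end of chromosome II. Of the 4 galactose genes on the list, which adds mel1 on chromosome I, 3 were higher in both Y1F-S7A libraries. The median log2 fold change of the 4 was 0.74. All 4 lie within 100 kb of an end and are among the 107, so this count is no separate result. Of the 107, 48.6% were higher in both Y1F-S7A libraries, and of all tested features 13.8%. The mel1 level was low, with an average log2 CPM of -1.70. The gal10 gene, for an enzyme of galactose use, was at 6.28 and 5.53 CPM in Y1F and at 8.55 and 14.1 CPM in Y1F-S7A (log2 fold change 0.93 ± 0.28, SE; adjusted p = 0.431). The gal7 gene, for galactose-1-phosphate uridylyltransferase, had a log2 fold change of 0.54 ± 0.20 (SE; adjusted p = 0.704).

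**Figure D3:**
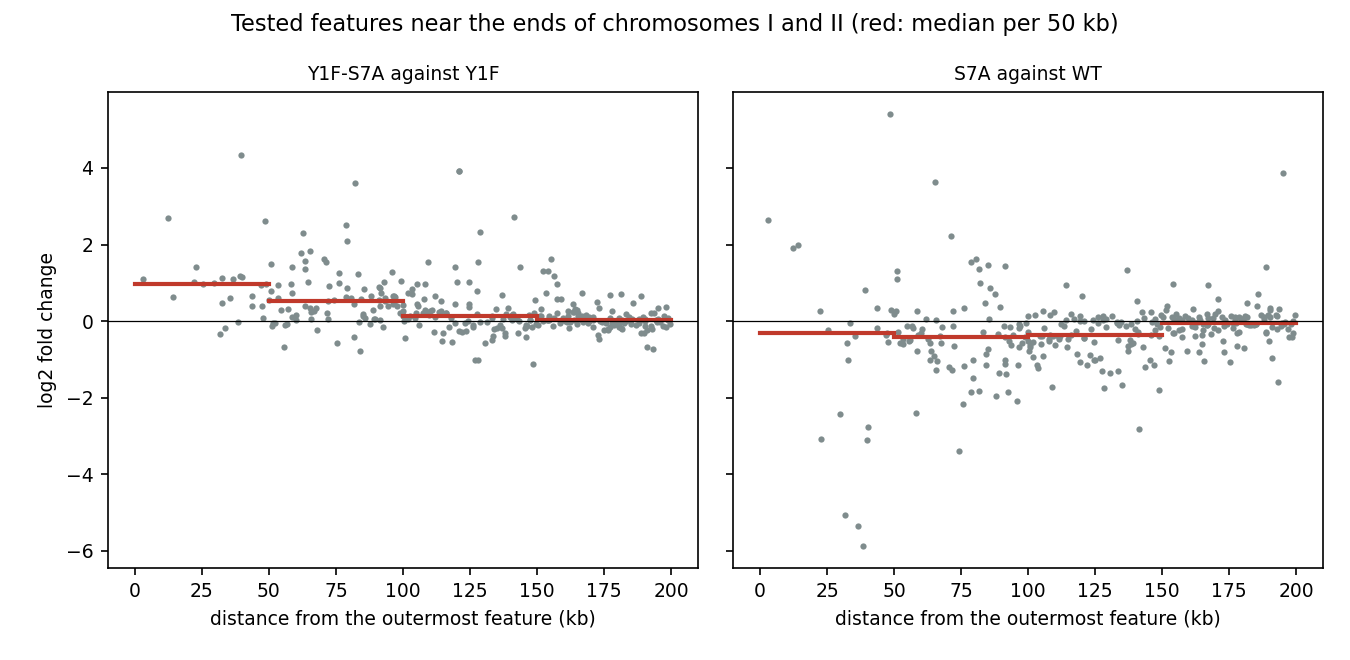
Log2 fold change (vertical axis) of tested features by distance in kb from the outermost feature of chromosomes I and II, for Y1F-S7A against Y1F (left) and S7A against WT (right), with the median per 50 kb in red. The medians on the left fall from 0.96 in the outermost 50 kb to 0.03 between 150 and 200 kb, while those on the right lie below 0.

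Comparing S7A in Y1F with S7A in WT asks whether the same replacement changes the same transcripts in both backgrounds, and these comparisons share no library. S7A against WT gave 110 calls without the number, 1.71% of those tested: 64 higher (0.997%) and 46 lower (0.717%). With the number as a term it gave 520 calls (8.1%), 264 higher (4.11%) and 256 lower (3.99%). Both S7A libraries were above both WT libraries for 19.0% of tested features and below them for 21.0%. The SD of the log2 fold change over all tested features was 0.38 in Y1F and 0.54 in WT, and 182 features in Y1F and 386 in WT were beyond 2-fold. The 64 features that rose in WT had a median log2 fold change of 1.51 there and 0.48 in Y1F, where 41 were higher in both libraries (13.8% of all tested features). The 46 that fell in WT had a median of -1.31 there and -0.22 in Y1F, where 21 were lower in both libraries (13.0% of all tested features). Since these features were chosen on the WT comparison, their WT medians are a description. Tested with the number as a term, 32 features changed in the same direction in both comparisons, 16 up and 16 down, which is 36.8% of the 87 in Y1F and 6.15% of the 520 in WT. Another 7 changed in opposite directions: aes1, SPBC1683.04, mal1, urh1, pan5, pdx1 and SPNCRNA.1306 rose in Y1F and fell in WT. Across the 6420 features the log2 fold changes had a Pearson r of 0.27 and a Spearman rho of 0.28, given as a description, since features are not independent replicates.

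The phosphate acquisition genes, which import phosphate or release it from outside the cell, were raised by S7A in WT and not called in Y1F. Of the 4 genes on the list, 3 rose in S7A against WT (background 0.997%). In Y1F-S7A against Y1F 0 were called, where only 0.0156% of all tested features were, and the median log2 fold change was 0.02. The pho1 gene, for the secreted acid phosphatase, was at 1432 and 1200 CPM in WT and at 3576 and 3642 CPM in S7A. In Y1F it was at 788 and 749 CPM and in Y1F-S7A at 767 and 991 CPM, where the groups overlap. Its log2 fold change was 1.46 ± 0.19 (SE; adjusted p = 0.00638) in WT and 0.19 ± 0.19 (SE; adjusted p = 1) in Y1F. The tgp1 gene, for a glycerophosphodiester transporter, was at 26.6 and 17.3 CPM in WT and at 89.5 and 97 CPM in S7A, and at 36.1 and 29.4 CPM in Y1F and 37.9 and 33.1 CPM in Y1F-S7A. Its log2 fold change was 2.09 ± 0.32 (SE; adjusted p = 0.00799) in WT and 0.12 ± 0.31 (SE; adjusted p = 1) in Y1F. The pho842 gene, a homologue of the phosphate transporter gene pho84, had a log2 fold change of 2.0625 ± 0.30 (SE; adjusted p = 0.00690) in WT and of -0.19 ± 0.29 (SE) in Y1F. The pho84 gene had one of 0.70 ± 0.35 (SE; adjusted p = 0.485, and 0.00583 with the number as a term) in WT and of -0.07 ± 0.35 (SE) in Y1F. The test of the difference between backgrounds gave no call without the number, with adjusted p-values of 0.157, 0.157, 0.0827 and 1 for pho1, tgp1, pho842 and pho84. With the number as a term the difference passed for pho1 (adjusted p = 0.0196) and tgp1 (0.00955) and not for pho842 (0.0659) or pho84 (0.0668). These tests set Y1F against WT. In T4A-S7A against T4A the log2 fold changes were -0.60 for pho1, 0.045 for tgp1, 0.74 for pho842 and -0.14 for pho84. The absence of a rise in pho1, tgp1 and pho84 was thus not particular to Y1F. The pho1 feature in the deposited table starts upstream of the RefSeq gene.

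**Figure D4:**
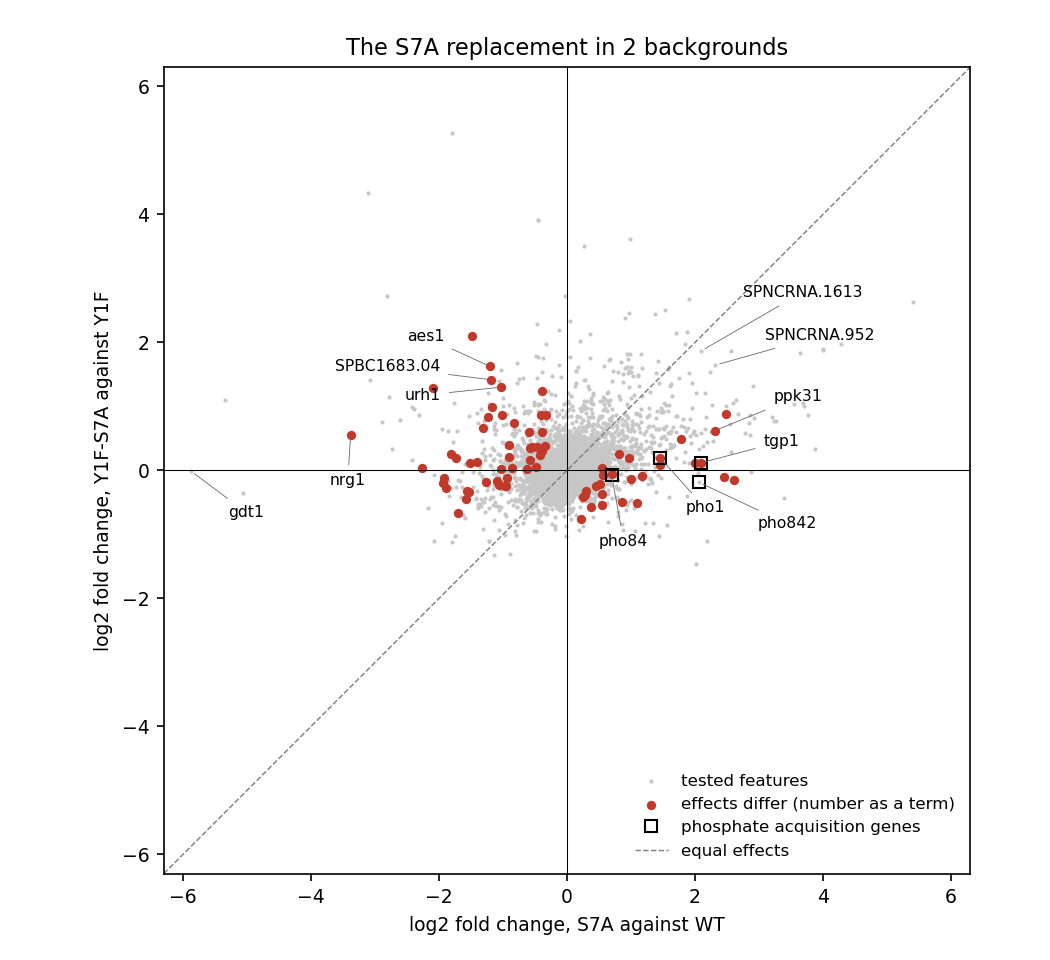
Log2 fold change of Y1F-S7A against Y1F (vertical axis) by that of S7A against WT (horizontal axis) for the 6420 tested features, with the 74 whose effects differ with the replicate number as a term in red and the 4 phosphate acquisition genes as squares. The phosphate genes lie between 0.70 and 2.09 on the horizontal axis and near 0 on the vertical one, and aes1, SPBC1683.04 and urh1 lie above 0 in Y1F and below 0 in WT.

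Over all features the difference between backgrounds gave 0 calls without the number in edgeR's quasi-likelihood test, with 354 features at an unadjusted p under 0.05, and 62 calls in DESeq2. With the number as a term 74 features passed (1.15%), 47 with the larger value in Y1F (0.732%) and 27 with the larger value in WT (0.421%). The largest positive difference among the 74 was that of nrg1, an amino-acid permease gene near the right end of chromosome II. It was at 32.8 and 18.2 CPM in WT and at 3.16 and 1.67 CPM in S7A, and at 16.3 and 5.75 CPM in Y1F and 17.2 and 15 CPM in Y1F-S7A. The log2 fold change was -3.38 ± 0.58 (SE; adjusted p = 0.0139) in WT and 0.55 ± 0.52 (SE) in Y1F, and the difference passed with the number as a term (adjusted p = 0.0121). The gdt1 gene, near the right end of chromosome I, was at 129 and 137 CPM in WT and at 3.56 and 0.784 CPM in S7A. In Y1F it was at 75.7 and 63.9 CPM and in Y1F-S7A at 73.5 and 64.8 CPM. Its log2 fold change was -5.88 ± 0.81 (SE; adjusted p = 0.00663) in WT and -0.01 ± 0.63 (SE) in Y1F. The difference missed the threshold both without the number (adjusted p = 0.0806) and with it (0.0837). In T4A-S7A against T4A the log2 fold change was 0.0019 ± 0.53 (SE) for nrg1 and 0.65 ± 0.63 (SE) for gdt1. The fall of both genes was thus seen beside the WT heptad and in neither Y1F nor T4A. For gdt1 the T4A cultures lay far apart, at 86.8 and 14.1 CPM.

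Meiotic genes were among those with the smaller value in Y1F. The list of 35 genes of meiosis and sporulation had 32 tested members, with a median log2 fold change of 0.31 in Y1F and 0.63 in WT. In WT 7 of them rose, where 0.997% of all tested features did. In Y1F 0 were called, where only 0.0156% of all tested features were, so that count says nothing particular to the list. Its median in Y1F was 0.16 when Y1F replicate 2 was left out, 0.18 when Y1F-S7A replicate 1 was and 0.49 when Y1F replicate 1 was. The mei4 gene, for the forkhead factor that drives middle meiotic genes, was at 9.42 and 9.45 CPM in Y1F and at 13.6 and 12.9 CPM in Y1F-S7A. In WT it was at 7.86 and 6.58 CPM and in S7A at 27.7 and 22 CPM. The log2 fold change was 0.49 ± 0.21 (SE; adjusted p = 0.800) in Y1F and 1.78 ± 0.21 (SE; adjusted p = 0.00306) in WT. The spn5 gene, for a septin used in spore formation, had one of 0.87 ± 0.33 (SE) in Y1F and 2.49 ± 0.35 (SE) in WT, and the protein kinase gene ppk31 had one of 0.62 ± 0.21 (SE) in Y1F and 2.31 ± 0.22 (SE) in WT. All 3 rose in WT and none was called in Y1F, and with the number as a term the difference passed for mei4, spn5 and ppk31 (adjusted p = 0.0383, 0.0435 and 0.00530). For mei2 and spo6, also meiotic genes chosen by name, the difference did not pass with that term (adjusted p = 0.407 and 0.130). Their log2 fold changes were 0.53 and 0.59 in Y1F and 1.48 and 2.25 in WT. For ppk31 Y1F alone was already at 14.2 and 19.6 CPM, against 3.98 and 4.21 CPM in WT.

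Setting Y1F beside T4A as the background, the difference in the effect of S7A gave 0 calls in edgeR's quasi-likelihood test without the number, with 185 features at an unadjusted p under 0.05, and 14 in DESeq2. With the number as a term 6 features passed (0.0935%), all with the larger value in Y1F. They were SPBC1683.04, mal1, urh1, ght4, thi9 and abc3. For SPBC1683.04 the log2 fold change was 1.42 in Y1F and -2.09 in T4A (adjusted p of the difference 1.8e-05 with the number as a term, 0.0609 without). For mal1 it was 0.74 in Y1F and -1.05 in T4A (adjusted p of the difference 0.00239 with the number as a term).

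Most other lists had medians close to 0. Over all tested features 0.0156% were called without the number and 1.36% with it, so counts of 0 say little about these lists. Among the 12 iron uptake genes, several of which stand high in Y1F itself, the median log2 fold change on adding S7A was -0.01 and 0 were called in either test. That median rests on single libraries: it was -0.36 when Y1F-S7A replicate 1 was left out, -0.19 when Y1F replicate 2 was and 0.11 when Y1F replicate 1 was. The fip1 gene, for the iron permease, was at 608 and 929 CPM in Y1F and at 584 and 488 CPM in Y1F-S7A, against 41.6 and 52.6 CPM in WT (log2 fold change -0.52 ± 0.51, SE, for Y1F-S7A against Y1F). The frp1 gene, for ferric reductase, was at 48.8 and 58.1 CPM in Y1F and at 70.1 and 34.4 CPM in Y1F-S7A, and the siderophore transporter gene str3 at 26.6 and 17.9 CPM in Y1F and 21.4 and 24.8 CPM in Y1F-S7A. The iron oxidase gene fio1 had a log2 fold change of -0.84 ± 0.61 (SE). With SEs of this size a change of 2-fold could not be told from no change for these genes. Genes for cytosolic ribosomal proteins, 141 in number, had a median of -0.01, the 29 tested proteasome genes one of -0.01, the 29 core stress genes one of -0.06 and the 20 heat shock chaperone genes one of -0.04, and 0 were called in these lists with or without the number. Of the 15 genes for CTD kinases and phosphatases, the 22 for capping, elongation and 3'-end factors and the 26 for RNA elimination and the exosome, 0 were called in either test, with medians of -0.04, -0.11 and -0.03. The 18 tested MBF cell cycle genes had a median of -0.14, with 7 lower in both Y1F-S7A libraries and 0 higher, against 13.0% and 13.8% of all tested features, and 0 were called. Of the 13 Tf2 retrotransposon features 0 were tested, since 12 had no read in the 4 libraries.

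**Figure D5:**
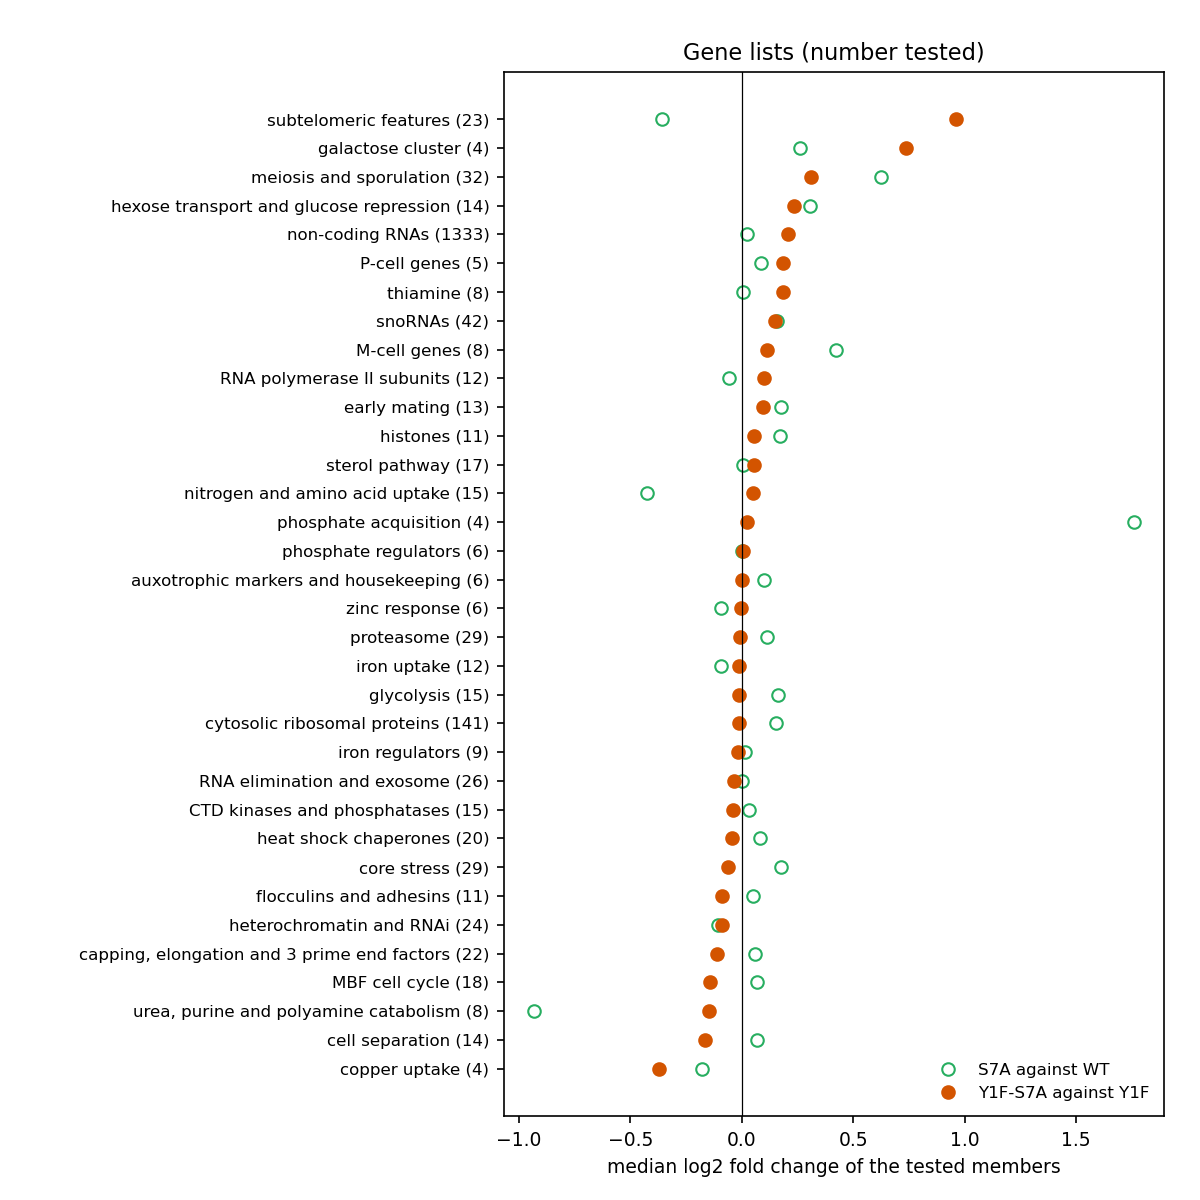
Median log2 fold change of the tested members of each gene list (number tested in brackets) for Y1F-S7A against Y1F (filled) and S7A against WT (open). Phosphate acquisition lies at 0.02 in Y1F and 1.76 in WT, and the subtelomeric features lie at 0.96 in Y1F (0.54 without Y1F-S7A replicate 2) and -0.36 in WT.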

How the data were processed

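Counts of reads per feature for 16 libraries were deposited as whole numbers by the authors, beside log2 RPKM values that were not used. The log2 fold changes and adjusted p-values of the authors' deposited DESeq comparisons served only for the counts credited to them. Bowtie 0.12.7 is named in the submitters' processing notes. The genome build and the counting step are not given in the sources used here. Of 7022 features, 6844 matched RefSeq locus tags and 1983 of these had the same start and end. Features with low counts were removed (filterByExpr by strain), leaving 6420. Tests were edgeR 4.0.16 quasi-likelihood tests (R 4.3.3, robust, TMM factors 0.911 to 1.15) with 1 coefficient per strain over all 16 libraries and 8 residual degrees of freedom. P-values are two-sided and adjusted by Benjamini-Hochberg over all tested features, with a threshold of 0.05. SEs were taken from the F statistics. Without the number, p-values rest on the spread between the 2 cultures of a strain, taken over all 8 strains. With the number as a term they rest on the spread left after a shared number effect, with 7 residual degrees of freedom. Deviations from the strain means correlated between same-numbered libraries in all 28 pairs of strains (r = 0.245 to 0.667; Y1F with Y1F-S7A 0.414), so the numbers were treated as pairing the samples. The biological coefficient of variation was 19.3%, and 11.7% with the replicate number as a term. Members and gene lists were chosen with earlier results of these data known. Named features were those called, the 12 highest and 12 lowest of log2 CPM 3 or more with non-overlapping libraries, the 4 members of each list with the smallest p, the 4 highest and lowest differences and a set of genes given by name. The selection was also applied to the calls with the number as a term, and ppk18, trm5, the partners of non-coding RNAs and other chromosome-end genes were named after their values were seen. Both tests were run on counts simulated from the fit with the number as a term. Such counts cannot show whether that term suits the real data. Alternatives were RLE factors, no filter, DESeq2 1.42.0, only the strains compared, and leaving out each library.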

Additional observations from a re-analysis of the deposited data

Results flagged for a closer look

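The effect of S7A differed between Y1F and WT, with the replicate number as a term, for 74 features, and between Y1F and T4A for 6. Without the number 0 passed in either comparison. Differences in log2 fold change, Y1F minus WT, are as follows. The larger value was in Y1F for nrg1 (4.03), aes1 (2.84), SPBC1683.04 (2.63), urh1 (2.33), SPNCRNA.1306 (1.87), mal1 (1.58) and pan5 (1.18), where pan5 encodes 2-dehydropantoate reductase. The larger value was in WT for SPAC27D7.11c (-2.69), a But2 family gene, and for tgp1 (-2.01), ppk31 (-1.68), spn5 (-1.62), otg2 (-1.37), a galactosyltransferase gene, mei4 (-1.29) and pho1 (-1.26). The SPAC27D7.11c cultures of number 2 were above those of number 1 in all 4 strains, with 285 and 912 CPM in Y1F and 291 and 792 CPM in Y1F-S7A. The differences Y1F minus T4A were 3.50 for SPBC1683.04, 2.04 for urh1, 1.78 for mal1, 1.57 for ght4, 1.21 for thi9 and 1.12 for abc3, a gene for an ABC transporter.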

How the results depend on the processing

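For S7A added to Y1F, the 1 call became 0 with RLE factors, with no low-count filter and with only the strains compared. It became 65 with DESeq2 and 87 with the replicate block, and was 0 without each library in turn. S7A in WT went from 110 calls to 520 with the replicate block, 301 with DESeq2, 8 with only the strains compared and 17 to 37 without each library in turn. The difference between Y1F and WT went from 0 calls to 74 with the replicate block, 62 with DESeq2 and 0 to 1 without each library. The difference between Y1F and T4A went from 0 to 6, 14 and 0 to 1 in that order. The 87 calls with the number as a term became 203 with DESeq2 and that term, and 12 to 19 without each library in turn (13 without Y1F replicate 2), alternatives chosen after seeing the data. They were 89 with RLE factors and 85 with no filter. The cause of these changes was not tested, except that a library left out leaves 1 culture in an arm. Of 78 values for single features 68 kept their sign throughout. The others changed sign only without 1 library, with log2 fold changes in Y1F from -0.013 to 0.36 for pho1, -0.023 to 0.27 for tgp1, -0.35 to 0.18 for pho84, -0.37 to 0.024 for pho842, -0.015 to 1.49 for nrg1, -0.13 to 0.12 for gdt1, -0.11 to 0.30 for otg2, -1.06 to 0.92 for SPAC27D7.11c, -0.65 to 0.38 for frp1 and -0.20 to 0.37 for str3. The ends of chromosomes I and II kept a median of 0.50 to 0.75, and SPNCRNA features one of 0.17 to 0.30.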
